A study of Mus musculus with 6 samples.

Results

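Proteoglycans are core proteins that carry long sugar chains, the glycosaminoglycans, and 10 of their genes that fibroblasts use to build and sense matrix were followed here in mouse lung fibroblasts (LFs). They were chosen by symbol among the 55364 genes listed, with earlier results of these data known. They comprise 5 small leucine-rich proteoglycans (Dcn, Bgn, Lum, Fmod and Aspn), 1 large proteoglycan of the matrix (Vcan) and 4 cell surface proteoglycans (Sdc1, Sdc2, Sdc4 and Gpc1). The 6 libraries came from primary LFs that were held in serum-free medium with 10 ng/ml TGF-β1 for 24 h. In 3 of them the LFs were wt. The other 3 are labelled TKS5 knockout, whereas the paper describes LFs of haploinsufficient Tks5+/- mice, littermates of the wt mice, from strains in which 1 Sh3pxd2a allele was recombined by a Cre that the CMV promoter drives in all tissues. Which of its recombined alleles these LFs carried is not in the sources used here. According to its methods, LFs were taken from C57Bl6/J mice 8 to 10 weeks old and used at passage 2 to 3. No library without TGFβ is among the 6, so the response to TGFβ itself was not measured. Whether each replicate was a separate animal is not in the labels, and p-values cover the spread between these libraries only.

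Small leucine-rich proteoglycans are horseshoe-shaped matrix proteins that bind collagen and steer how fibrils assemble, and decorin and biglycan also bind TGFβ. Versican, together with hyaluronan, forms the loose and hydrated matrix laid down around migrating cells. Syndecans span the membrane and glypicans are held on its outer face by a lipid anchor. Both use heparan sulfate chains to present growth factors, and syndecans also work as co-receptors of integrins and of matrix.

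Reads came from the end of each transcript, next to the poly(A) tail, and summed to 1344507 to 2369882 counts per library. Levels are given as CPM, counts relative to library size, after TMM scaling, which sets libraries to a common level through the bulk of their genes, and are compared between libraries, not between genes. The test was edgeR's quasi-likelihood F test over 10346 genes with Benjamini-Hochberg adjustment, and adjusted p-values come from it unless another tool is named. Calls required both a fold change of 1.2 or more and an adjusted p below 0.05. The targeted gene, Sh3pxd2a, stood at 113 ± 16.5 CPM (SD, n = 3) in wt and 138 ± 11.1 (SD, n = 3) in the other LFs (log2 fold change 0.29, adjusted p = 0.249). With each library corrected for transcript length it was called higher in the other LFs (1.01, adjusted p = 4.74e-04), and so it was with length and GC content corrected (1.18) and with a replicate block added to the length correction. With library totals in place of TMM scaling it was at -0.13 and not called (adjusted p = 0.608). Reads from the transcript end lie outside the loxP-flanked exon that the Cre removes, so these counts do not read that exon. A recombined allele of the paper is a reporter that expresses LacZ from the Tks5 promoter. How the recombined alleles change reads from the transcript end was not tested, so whether the deletion is present cannot be told from these counts. The other LFs are named the Tks5-labelled libraries, and each direction rests on their labels. Macrophage genes were not even across libraries. The summed level of 12 macrophage markers was 2280 CPM in wt replicate 3, 361 and 409 CPM in the other wt libraries, and 138 to 159 CPM in the Tks5-labelled libraries. Values without wt replicate 3 are given below for some of the genes, and where none is given the value may still differ.

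All 10 proteoglycan genes passed the filter on low counts. Bgn, Fmod, Aspn and Sdc2 were called lower and Sdc4 and Gpc1 higher in the Tks5-labelled libraries, while Dcn, Lum, Vcan and Sdc1 were not called. So 4 of 10 were lower, beside 22.1% of all genes tested, and 2 of 10 higher, beside 22.8%. For 6 of the 10 the levels of the groups did not overlap, as for 53.8% of all genes tested. The median log2 fold change of the 10 genes was -0.463, against -0.0457 over all genes tested. With library totals as the scaling, which moved the median of all genes to -0.465, 8 of the 10 genes were lower and 0 higher (1 higher at an unadjusted p under 0.05 by edgeR), against 2286 lower and 2356 higher of all genes with TMM and 3944 and 1362 with library totals. With DESeq2, 2 of the 10 genes were lower and 2 higher.

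**Figure D1:**
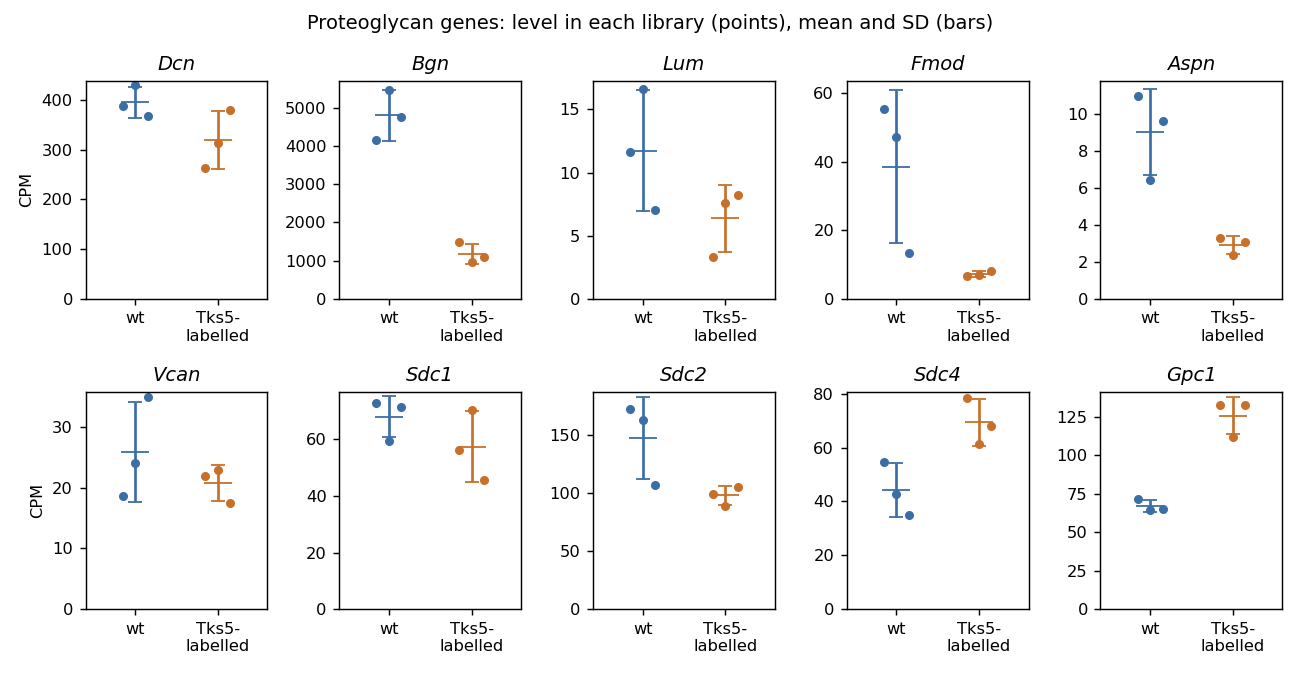
Level of each of the 10 proteoglycan genes in CPM (vertical axis, from 0, its own scale per gene) in the 3 wt and the 3 Tks5-labelled libraries. Points are libraries, in the order of their replicate numbers, and bars are the mean and SD. Bgn, Fmod, Aspn and Sdc2 lie lower and Sdc4 and Gpc1 higher in each Tks5-labelled library than in any wt library. The other genes overlap.

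The 250 bases before the start of transcription, from RefSeq on GRCm38.p6, are shown for the most strongly lowered pair, Bgn and Fmod, and for Sdc4, which rose. Of the 10 genes, 6 were matched to a promoter of this table. The Sdc4 stretch lies before the RefSeq start and before the coding transcript of GENCODE, but inside the gene span given below, which includes a longer noncoding transcript. Capitals mark matches, on either strand, of the SMAD-type box CAGAC, of the GC box GGGCGG, of the TATA box TATAAA and of the AP-1 site TGANTCA.
Bgn, chrX:73483351-73483600, forward strand: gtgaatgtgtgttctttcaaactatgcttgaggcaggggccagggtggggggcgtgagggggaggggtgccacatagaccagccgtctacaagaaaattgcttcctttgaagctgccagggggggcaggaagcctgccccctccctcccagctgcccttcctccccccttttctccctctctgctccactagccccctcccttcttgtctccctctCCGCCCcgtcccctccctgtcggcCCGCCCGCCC
Fmod, chr1:134037004-134037253, forward strand: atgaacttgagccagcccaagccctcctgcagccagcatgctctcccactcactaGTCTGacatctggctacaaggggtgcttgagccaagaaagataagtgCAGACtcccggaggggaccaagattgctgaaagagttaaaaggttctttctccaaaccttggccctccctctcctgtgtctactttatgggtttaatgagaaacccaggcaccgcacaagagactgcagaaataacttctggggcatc
Sdc4, chr2:164443189-164443438, reverse strand: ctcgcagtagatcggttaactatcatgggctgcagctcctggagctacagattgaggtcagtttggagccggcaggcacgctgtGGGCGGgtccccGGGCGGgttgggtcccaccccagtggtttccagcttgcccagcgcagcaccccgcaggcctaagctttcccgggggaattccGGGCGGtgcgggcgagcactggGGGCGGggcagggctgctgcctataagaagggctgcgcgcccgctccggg
The Bgn stretch held 3 matches of the GC box, of which the last 2 overlap, and Sdc4 held 4, while Fmod held 2 of CAGAC and no GC box. Over all 32851 promoters of the table, 42.2% of such stretches held CAGAC, 32.7% the GC box, 12.4% TATAAA and 6.75% TGANTCA. These matches describe letters only. GC boxes stood before Bgn, which fell, and before Sdc4, which rose, and no match of TGANTCA lay in the 6 stretches.

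Bgn, the gene of biglycan, lies on chromosome X of GRCm38 from 73483602 to 73495933. It was read deeply, with 6465, 10237 and 12880 reads counted for wt replicates 1, 2 and 3, against 2689, 1639 and 2161 for the Tks5-labelled replicates. In CPM this was 4161, 5478 and 4776 against 1476, 959 and 1106, so that the highest Tks5-labelled library stood far below the lowest wt library. The means were 4805 ± 659 CPM (SD, n = 3) and 1180 ± 266 (SD, n = 3), and the log2 fold change was -2.03 (standard error 0.23, 95% interval -2.49 to -1.56, adjusted p = 3.64e-07), a 4.07-fold fall. Bgn was lower and called in each of the 20 alternative analyses, between -2.58 and -1.87. Because the gene is X-linked, genes of the sex chromosomes were read too. Xist had no count in any library, and Ddx3y, Eif2s3y, Kdm5d and Uty of the Y chromosome had counts in every library. Their summed level was 101 to 107 CPM in wt and 21.5 to 32.9 CPM in the Tks5-labelled libraries, a fall carried by Ddx3y, which was called lower at 85.6 against 11.9 CPM. Eif2s3y stood at 9.65 and 8.34 CPM (adjusted p = 0.688), Kdm5d at 2.65 and 2.45 CPM, and Uty at 6.38 and 2.71 CPM with overlapping groups. Kdm5d and Uty did not pass the filter on low counts.

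Fmod encodes fibromodulin, which binds fibrillar collagen in dense connective tissue, and lies on chromosome 1 from 134037254 to 134048277. It was at 55.4, 47.1 and 13.4 CPM for wt replicates 1, 2 and 3, against 6.59, 7.02 and 8.19 CPM in the Tks5-labelled replicates. The wt libraries were far apart, with wt replicate 3 nearest to the Tks5-labelled libraries, and the groups still did not overlap. The log2 fold change was -2.36 (standard error 0.46, 95% interval -3.35 to -1.37, adjusted p = 8.72e-04). Between the wt libraries the coefficient of variation was 57.7%, where counting alone would give 12.0%. Without wt replicate 3 the log2 fold change was -2.80, and Fmod was called in all 6 fits that left out 1 library.

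Aspn, on chromosome 13 from 49544443 to 49567565, encodes asporin, a relative of decorin with a run of aspartate that usually carries no glycosaminoglycan chain. It had few reads, with counts of 17, 12 and 26 for wt replicates 1, 2 and 3 against 6, 4 and 6 for the Tks5-labelled replicates. Wt LFs averaged 9.0 ± 2.33 CPM (SD, n = 3), and Tks5-labelled LFs averaged 2.90 ± 0.498 (SD, n = 3). The log2 fold change was -1.60 (standard error 0.46, 95% interval -2.56 to -0.64, adjusted p = 0.00726), an interval that spans from a weak to a strong fall. Aspn was called in all 6 fits that left out 1 library, but not by DESeq2 (adjusted p = 0.067, the highest over its alternatives, from 0.00114). The gene lies inside Cenpp on the opposite strand, which had 0, 3 and 9 counts in wt and 9, 11 and 16 in the Tks5-labelled libraries.

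Dcn and Lum are neighbours on chromosome 10, at 97479609 to 97518143 and at 97565128 to 97572703. Dcn encodes decorin, the collagen-binding proteoglycan by which fibroblasts are often recognised. It was at 388, 430 and 368 CPM in wt and 264, 313 and 381 CPM in the Tks5-labelled libraries, and the groups overlapped. Its log2 fold change of -0.31 (95% interval -0.73 to 0.11, adjusted p = 0.229) did not pass the test. The interval lies wholly above that of Bgn, a close relative. Dcn was called lower with library totals as the scaling (-0.74) and by limma on the values normalized by the authors (-0.75, adjusted p = 0.042), and corrected for transcript length it was at -0.019. Its alternatives spanned adjusted p-values of 0.00391 to 0.952.

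Lum encodes lumican, a keratan sulfate proteoglycan. It was read at 18, 31 and 19 counts in wt and at 6, 13 and 16 counts in the Tks5-labelled libraries, and the groups overlapped in CPM. A log2 fold change of -0.85 (95% interval -1.74 to 0.046, adjusted p = 0.115) was not past the test, and at this depth the interval holds both 0 and the value of Aspn. Lum was called lower without wt replicate 3 (-1.15, adjusted p = 0.0434), with library totals (-1.28, 0.0172) and with length and GC content corrected (-1.35, 0.0153), and its alternatives reached an adjusted p of 0.46.

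Vcan, on chromosome 13 from 89655312 to 89742509 on the reverse strand, encodes versican. Counts of 29, 45 and 94 were found for wt replicates 1, 2 and 3, against 40, 39 and 34 for the Tks5-labelled replicates. Wt replicate 3 was the highest library at 34.9 CPM and the other wt libraries, at 18.7 and 24.1 CPM, lay among the Tks5-labelled ones at 17.4 to 22.8 CPM. The log2 fold change was -0.35 (95% interval -0.94 to 0.24, adjusted p = 0.337), and -0.058 without wt replicate 3. The longest transcript of Vcan has 12427 bases, and those of the other 9 genes 2329 to 4692. Over all 10346 genes tested, which share these 6 libraries, the Spearman correlation of log2 fold change with transcript length was -0.397, and with each library corrected for that trend Vcan was at 0.44 (adjusted p = 0.238). No direction can therefore be given for Vcan.

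**Figure D2:**
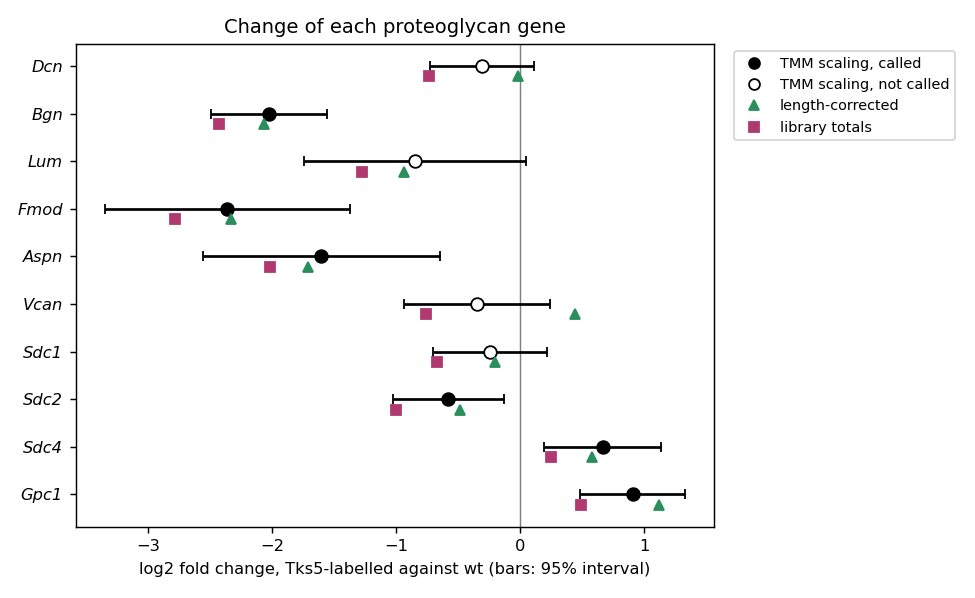
Log2 fold change of each proteoglycan gene in Tks5-labelled against wt libraries (horizontal axis) with its 95% interval. Filled circles were called and open circles were not; triangles are values after correction for transcript length and squares values with library totals as the scaling. Bgn (-2.03), Fmod (-2.36) and Aspn (-1.60) lie below 0 under all 3, Sdc4 and Gpc1 above 0, and Vcan changes side.

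Sdc2, on chromosome 15 from 32920723 to 33034935, encodes the syndecan that is typical of mesenchymal cells. It was at 173, 163 and 108 CPM for wt replicates 1, 2 and 3, against 99.9, 89.5 and 106 CPM in the Tks5-labelled replicates, so that wt replicate 3 lay just above the Tks5-labelled libraries. The log2 fold change was -0.58 (standard error 0.22, 95% interval -1.03 to -0.13, adjusted p = 0.0334). This call is fragile. It was kept in 1 of the 6 fits that left out 1 library, without wt replicate 3 (-0.77), and lost without wt replicate 1 (adjusted p = 0.139), wt replicate 2 (0.138) or Tks5-labelled replicate 1 (0.082), 2 (0.127) or 3 (0.0663). It was also lost under 5 other alternatives, among them DESeq2 (adjusted p = 0.0645) and the correction for transcript length (-0.48), with an adjusted p of 9.98e-04 to 0.139 over all of them.

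Sdc4, on chromosome 2 from 164424247 to 164443887 on the reverse strand, encodes the syndecan of focal adhesions, a co-receptor of integrins for fibronectin. It was at 54.7, 42.8 and 34.9 CPM in wt and at 78.5, 61.4 and 68.1 CPM in the Tks5-labelled libraries, each of which was above every wt library. It rose 1.59-fold, or by 0.67 on the log2 scale (standard error 0.23, 95% interval 0.20 to 1.14, adjusted p = 0.0204). The call was lost without wt replicate 2 (adjusted p = 0.0742) or wt replicate 3 (0.123), by limma on the values normalized by the authors (0.0605), with library totals as the scaling (0.391) and after a joint correction for length and GC content (0.129), and the alternatives together spanned adjusted p-values of 0.0123 to 0.391. All of them kept it above 0.

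Sdc1, on chromosome 12 from 8771323 to 8793715, encodes the syndecan best known from epithelial and plasma cells. It was at 72.7, 59.4 and 71.2 CPM in wt and at 56.0, 70.2 and 45.6 CPM in the Tks5-labelled libraries, and the groups overlapped. Its log2 fold change was -0.25 (95% interval -0.71 to 0.21, adjusted p = 0.383), and the interval leaves no room for a change as large as that of Bgn. It was called lower with library totals (-0.67), and after a joint correction for length and GC content it was at 0.056.

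Gpc1 encodes glypican-1, a heparan sulfate proteoglycan that fibroblasts use as a co-receptor of growth factors, and lies on chromosome 1 from 92831645 to 92860779. It had 111, 120 and 176 counts in wt and 241, 191 and 259 in the Tks5-labelled libraries. Wt LFs averaged 67.0 ± 3.91 CPM (SD, n = 3) and Tks5-labelled LFs averaged 126 ± 11.9 (SD, n = 3), and the log2 fold change was 0.91 (standard error 0.20, 95% interval 0.49 to 1.33, adjusted p = 9.70e-04). The call held in all 6 fits that left out 1 library and failed with library totals as the scaling (0.49, adjusted p = 0.0551, the highest over its alternatives, from 4.14e-06).

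The rise cannot be given to Gpc1 alone. The ankyrin repeat gene Ankmy1, at 92859803 to 92902906 on the opposite strand, ends within the end of Gpc1. Ankmy1 had 111, 120 and 176 counts in wt and 241, 190 and 259 in the Tks5-labelled libraries, equal to those of Gpc1 in 5 of 6 libraries and 1 count apart in the other. The same reads were thus counted for both genes, and which of them rose cannot be told apart here. No other proteoglycan gene of the 10 had over 39.4% of its counts matched by a neighbour, and for Bgn, Fmod, Dcn, Lum, Sdc1, Sdc2 and Sdc4 no gene within 1 kb had any count.

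A ratio of 2 genes within a library does not depend on how libraries are scaled, and 5 pairs were compared this way. The log2 ratio of Bgn to Dcn was 3.42, 3.67 and 3.70 for wt replicates 1, 2 and 3, against 2.48, 1.61 and 1.54 for the Tks5-labelled replicates, a difference of -1.72 on the log2 scale, or 3.29-fold. Biglycan reads thus fell against decorin reads in each Tks5-labelled library. The ratio of Aspn to Dcn fell by 1.2 and that of Sdc1 to Sdc4 by 0.925, while that of Vcan to Bgn was higher by 1.76, each with no overlap between the groups. That of Lum to Dcn differed by -0.548 and overlapped. The exact two-sided permutation test gave p = 0.1 for the 4 pairs without overlap, the smallest p that 3 libraries against 3 allow, and 0.125 after adjustment over the 5 pairs. It gave 0.3 for Lum to Dcn, so none of the 5 could pass 0.05 by this test.

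**Figure D3:**
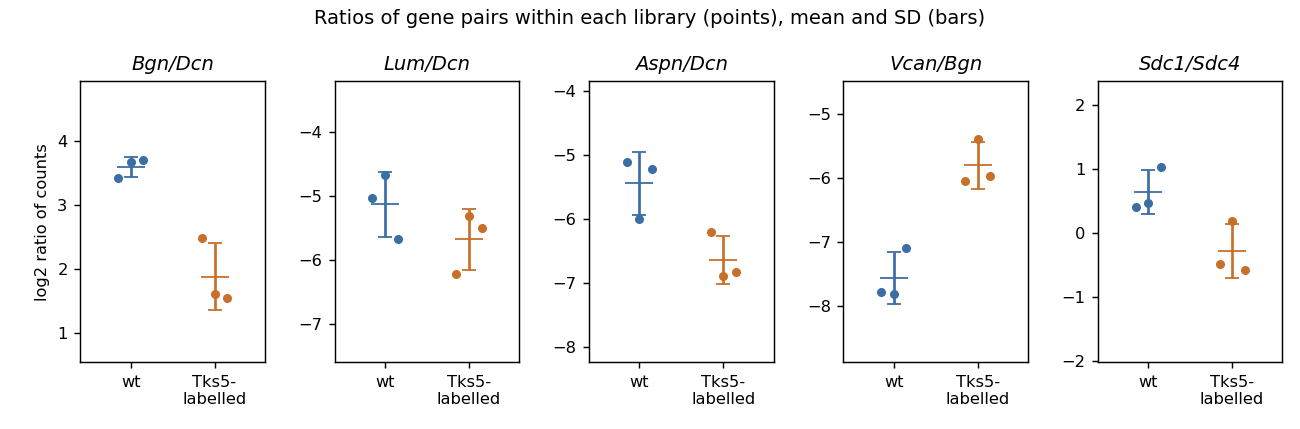
Log2 ratio of the counts of 2 genes within each library (vertical axis, each of equal span) for 5 pairs in the 3 wt and the 3 Tks5-labelled libraries. Points are libraries and bars the mean and SD. The ratios Bgn/Dcn, Aspn/Dcn and Sdc1/Sdc4 lie lower and Vcan/Bgn higher in the Tks5-labelled libraries, and Lum/Dcn overlaps.

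The other genes of proteoglycans and of their sugar chains were grouped into 7 lists with 117 genes, of which 73 were tested. Of these, 32 were lower, 9 higher and 32 not called, with a median log2 fold change of -0.537, so 43.8% were lower and 12.3% higher, beside 22.1% and 22.8% of all genes tested. The counts of the single lists below are to be read against the same shares over all genes. The lists were chosen with earlier results of these data known, and whether their shares exceed those over all genes was not tested. Among other small leucine-rich proteoglycans, 4 of 13 genes were tested and 3 were lower (75.0%, beside 22.1% of all genes; median -1.47). Prelp, a heparin-binding proteoglycan of basement membranes, went from 70.1 ± 34.4 CPM (SD, n = 3) in wt to 6.97 ± 4.50 (SD, n = 3) in the Tks5-labelled libraries, a log2 fold change of -3.31 (adjusted p = 4.12e-04). Over the 6 fits that left out 1 library Prelp was between -3.91 and -2.95, and called in each. It was at -3.67 without wt replicate 3. Tsku, a secreted antagonist of growth factors, fell by 1.91 on the log2 scale (adjusted p = 3.63e-04). It was at -2.21 without wt replicate 3 and at -1.47 without wt replicate 1. Podn was at -1.03 (adjusted p = 0.0223) and called in 1 of the 6 fits that left out 1 library. That fit left out wt replicate 3, and the adjusted p was 0.0948 without wt replicate 1, 0.0898 without wt replicate 2, and 0.0965, 0.122 and 0.107 without Tks5-labelled replicates 1, 2 and 3. Podn overlaps Scp2 on the same strand, so reads may be split between them.

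Of 21 other secreted proteoglycans and link proteins, 7 were tested, with 4 lower (57.1%, beside 22.1% of all genes) and 1 higher (14.3%, beside 22.8%; median -1.48). Hspg2, the gene of perlecan of basement membranes, went from 98.0 ± 21.3 CPM (SD, n = 3) to 25.3 ± 5.13 (SD, n = 3), which on the log2 scale was -1.95 (adjusted p = 1.48e-06). Corrected for transcript length, Hspg2 was at -1.08, and at -0.77 with GC content corrected too, and it was called in both. Col15a1, a basement membrane collagen that carries chains, had 21, 12 and 24 counts in wt and 0, 0 and 2 in the Tks5-labelled libraries, and was at least 5.84-fold lower against a floor of 3 counts per library. Esm1, or endocan, a dermatan sulfate proteoglycan best known from endothelium, rose from 3.77 ± 0.0802 CPM (SD, n = 3) to 30.1 ± 10.1 (SD, n = 3), with 2.98 (adjusted p = 1.42e-06), or 2.37 after a joint correction for length and GC content. The summed level of 10 endothelial markers moved the other way, from 121 to 164 CPM in wt to 45.6 to 60.9 CPM in the Tks5-labelled libraries, 3 of them without a count in any Tks5-labelled library.

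Of 14 other cell surface proteoglycans, 9 were tested, with 2 lower and 1 higher (median -0.571). The 22.2% lower is the share found over all genes (22.1%), and 11.1% were higher, beside 22.8%. Cspg4, or NG2, the chondroitin sulfate proteoglycan of pericytes and progenitors, went from 22.1 ± 1.55 CPM (SD, n = 3) to 1.80 ± 0.554 (SD, n = 3), with -3.55 (adjusted p = 7.77e-07), or -2.74 after the joint correction for length and GC content. Gpc4, another glypican, fell by 0.82 (adjusted p = 0.00552). Its log2 fold change and that of Gpc1 had opposite signs, but the counts of Gpc1 cannot be told apart from those of Ankmy1. Thbd, or thrombomodulin, rose by 0.68 (adjusted p = 0.0198), but its call was lost without wt replicate 1 (0.0573), wt replicate 3 (0.0675) or Tks5-labelled replicate 2 (0.115), against 0.00496 to 0.368 over its alternatives. Of 8 mural cell markers, a class that shares contractile genes with myofibroblasts, 6 were tested. Of these, 3 were lower (Myh11, Des and Notch3) and 2 higher (Cnn1 and Tagln), beside 22.1% and 22.8% of all genes tested. Whether shares in so short a list exceed those over all genes was not tested. The summed level of the 8 mural markers was 4790 to 5710 CPM in wt and 6250 to 7130 CPM in the Tks5-labelled libraries. Most of it was Acta2, with means of 4610 and 4283 CPM and not called, and Tagln, with 478 and 1891 CPM. Up to 91.1% of the counts of Tagln were matched by Pcsk7 on the opposite strand.

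Enzymes that begin and lengthen the chains were lower for 6 of 15 genes tested (40.0%, beside 22.1% of all genes) and higher for 1 (6.67%, beside 22.8%; median -0.301). Chpf and Chpf2, partners of chondroitin synthases, were at -1.95 (adjusted p = 1.82e-07) and -1.38 (adjusted p = 1.27e-04; -0.78 after a joint correction for length and GC content), and Extl3, which starts heparan sulfate chains, at -1.53 (adjusted p = 9.36e-05). Up to 95.1% of the counts of Chpf were matched by Asic4 and up to 93.8% of those of Chpf2 by Smarcd3, both on the opposite strand, so these counts are uncertain in the way of Gpc1. Of the genes that sulfate and remodel the chains, 15 were tested, with 6 lower (40.0%, beside 22.1% of all genes) and 2 higher (13.3%, beside 22.8%; median -0.476). Sulf1, which trims sulfate from heparan sulfate outside the cell, went from 159 ± 13.6 CPM (SD, n = 3) to 42.8 ± 4.73 (SD, n = 3), with -1.89 (adjusted p = 3.94e-07). Ndst1, which begins the sulfation of heparan sulfate, was at -1.37 (adjusted p = 1.79e-05), and adjoins the highly read Rps14 on the opposite strand. Ndst2, its close relative, was at -1.27 (adjusted p = 3.34e-04), with up to 99.5% of its counts matched by Zswim8 on the opposite strand.

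In the supply of precursors 3 of 12 genes were lower and 4 higher (median -0.175), and these 25.0% and 33.3% lie near the shares over all genes of 22.1% and 22.8%. Ugdh, which makes the UDP-glucuronate that chains are built from, had 23, 24 and 71 counts in wt and 97, 99 and 135 in the Tks5-labelled libraries, and rose by 1.70 (adjusted p = 2.80e-05). Slc35b3, a carrier of the sulfate donor into the Golgi, rose by 1.91 (adjusted p = 8.89e-05), while Slc26a2, a sulfate transporter of the cell membrane, fell by 1.52 (adjusted p = 7.42e-05). Among lysosomal enzymes that degrade the chains, 8 of 11 genes tested were lower (72.7%, beside 22.1% of all genes) and 3 not called (median -1.05). Sgsh, a sulfatase of heparan sulfate, was at -1.70 (adjusted p = 1.22e-04). Galns, a sulfatase of keratan and chondroitin sulfate, was at -3.12 (adjusted p = 1.76e-05) with 7, 2 and 3 counts in the Tks5-labelled libraries, and adjoins Trappc2l on the opposite strand. Over the 6 fits that left out 1 library Galns was between -3.72 and -2.70, and called in each.

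**Figure D4:**
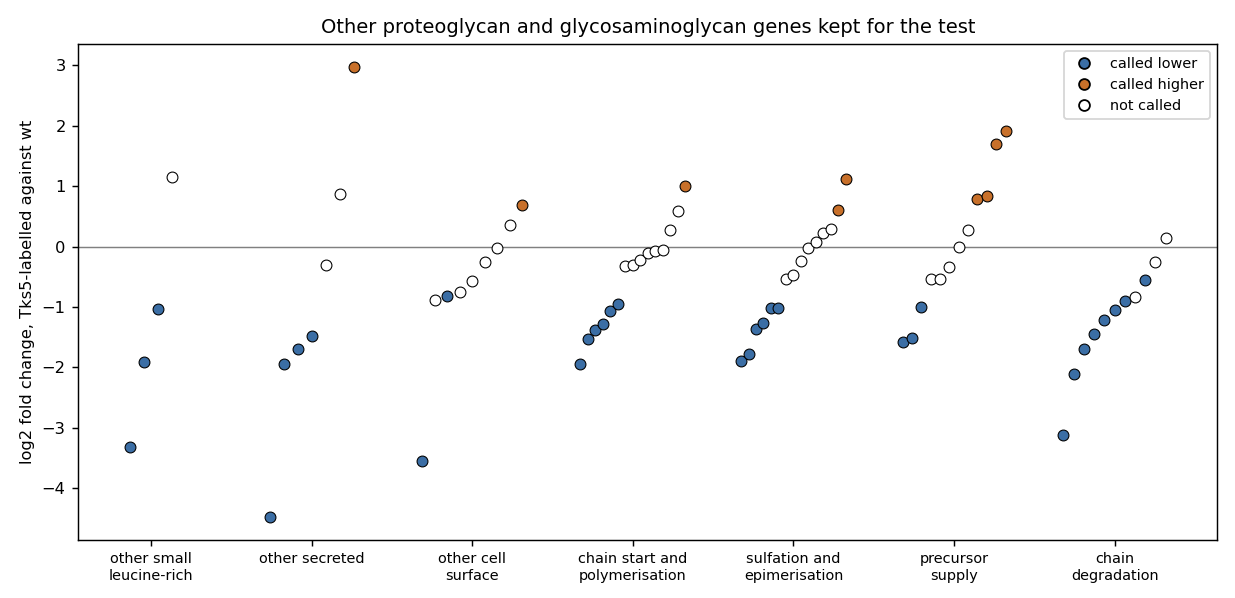
Log2 fold change in Tks5-labelled against wt libraries (vertical axis) of the 73 tested genes of 7 lists of proteoglycan and glycosaminoglycan genes. Each point is a gene, in rising order within its list and coloured by its call, and Col15a1, the lowest point, is a fitted value. In chain degradation 8 of 11 genes were called lower, and in precursor supply 3 were lower and 4 higher.

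The fibroblast label was met in all libraries, as each of 10 fibroblast markers had counts in every library. Of them 1 was called lower, Pdgfrb (10.0%, beside 22.1% of all genes). Another 4 were higher, Col3a1, Pdgfra, Thy1 and Tcf21 (40.0%, beside 22.8%). The summed level of the 10 markers was 2680 to 4220 CPM in wt and 3810 to 6460 CPM in the Tks5-labelled libraries. Most of it was Col1a1, with means of 1915 and 2612 CPM, and Col1a2, with 975 and 1275 CPM, neither of them called. Of 12 macrophage markers 9 were tested and 4 were lower, and of 10 endothelial markers 5 were tested and 4 lower. Of 8 mesothelial markers 2 were tested and 1 lower, and of 10 epithelial markers 3 were tested with 2 lower and 1 higher. These counts are to be read beside the 22.1% lower and 22.8% higher of all genes tested. Few genes were tested per list, and whether their shares exceed those over all genes was not tested. The mesothelial sum was 31.6 to 48.6 CPM in wt and 6.14 to 83.4 CPM in the Tks5-labelled libraries. Its top value came from Gpm6a, at 70.2 CPM in Tks5-labelled replicate 1, while Upk3b, called lower, went from 11.3 to 1.15 CPM. The epithelial sum was 28.4 to 69.7 CPM in wt and 29.7 to 62.0 CPM in the Tks5-labelled libraries. There it was nearly all Ager, at 37.3, 60.3 and 29.2 CPM. Up to 100% of the counts of Ager were matched by Rnf5 on the opposite strand. Without a count were 7 of the 10 epithelial markers in the Tks5-labelled libraries and 4 in wt. The surfactant genes Sftpb and Sftpc had no count in any library. In bulk RNA fewer cells of a type and less RNA per cell cannot be told apart, and the part of these markers in the changes above was not tested. Without wt replicate 3, the library richest in macrophage markers, the log2 fold change of Bgn was -2.03, that of Aspn -1.54 and that of Gpc1 0.89. All 3 genes were called, as were Fmod and Sdc2. Sdc4 lost its call in that fit (adjusted p = 0.123) and Lum gained one (0.0434). The remaining wt libraries still had 361 and 409 CPM of macrophage markers, against 138 to 159 CPM in the Tks5-labelled libraries.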

How the data were processed

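Quant-Seq, which sequences the end of polyadenylated transcripts, was run on 6 RNA samples. The authors cut low-quality read ends (Trim Galore), mapped to GRCm38 (HISAT2, then Bowtie2 for what was left unmapped), used metaseqR2 to count over 3′ UTR regions, and deposited counts summed per gene. How strand was used in counting is not given in the sources used here. The authors also deposited counts normalized with EDASeq, rounded to whole numbers and treated as a score, in which all 6 libraries share the same sorted values. These served in 1 alternative only.

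The deposited counts (55364 genes, 1344507 to 2369882 per library) were filtered with filterByExpr, scaled by TMM and tested in edgeR 4.0.16 (R 4.3.3) with the robust quasi-likelihood F test and Benjamini-Hochberg adjustment over 10346 genes. Calls required a fold change of 1.2 or more with an adjusted p below 0.05. Low counts widen the intervals. Ratios used counts plus 0.5 and an exact two-sided permutation test in scipy 1.17.1, with 5 pairs adjusted together. A fold against libraries at or near 0 was bounded with 3 counts per library. Gene positions and transcript lengths came from GENCODE annotation of GRCm38, which matched 55104 genes. The edgeR fit was tested on simulated data with known changes, up or down at random in far fewer genes than were called here. The simulation therefore does not bear on the choice of scaling for a shift as broad as in these libraries. The 20 alternatives used DESeq2 1.42.0, limma 3.58.1 and voom, other scalings and filters, a test against a fold of 1.2, corrections for transcript length and GC content, a replicate block, and leaving out each library. Named genes were the 10 proteoglycan genes and, of each list, up to 3 called genes with the smallest p, of which 1 is not reported here. Members and lists were chosen with earlier results of these data known.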

Additional observations from a re-analysis of the deposited data

How the results depend on the processing

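Of the 10 proteoglycan genes, 4 were lower and 2 higher in the Tks5-labelled libraries, beside 22.1% and 22.8% of all genes tested. The lower count became 2 with DESeq2, which lost Aspn and Sdc2, and 8 with library totals as the scaling. The higher count became 0 with library totals, which moved the whole table from 2286 lower and 2356 higher genes to 3944 and 1362, 1 by limma on the values normalized by the authors, and 1 after a joint correction for length and GC content. Leaving out 1 library gave 3 to 5 lower and 1 to 2 higher, with 1 higher without wt replicate 2 or wt replicate 3. Of the related genes, 9 were higher, and 4 with library totals. Over the whole table the alternatives called 3705 to 5306 genes, and the ratios of the 5 pairs kept their direction in all alternatives run. A minimum of 10 counts in every library left out Lum and Aspn. The labels do not say that equal replicate numbers mark a pair, and deviations of same-numbered libraries were not related (correlations -0.00101, -0.0637 and 0.082). With the replicate number as a block, 4 proteoglycan genes were lower and 2 higher, and 4668 genes were called over the whole table. Low counts limit several named genes, among them Lum, Aspn, Galns, Col15a1, Cspg4, Esm1 and Slc35b3.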
